A study of Mus musculus with 12 samples.

Results

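The hypothalamus of mice with both copies of Wfs1 mutant was compared with that of mice with 1 mutant copy, by RNA sequencing. The comparison holds 8 of the 12 libraries of the study: 4 heterozygous (replicates 1 to 4) and 4 homozygous (replicates 1, 2, 4 and 5), all the count columns with these genotypes. All mice belong to 1 line, labelled Wfs1tm1Koks, so both groups carry the mutant allele, in 1 copy or in 2, and the heterozygotes are not an unmutated control. The other 4 libraries are wild-type (0 mutant copies), and their levels stand beside some of the results as a description only. Age, sex and rearing of the mice are not given in the labels. Homozygous replicate 5 was placed by the genotype in its column name, since no label has its number. The labels also name a homozygous sample 3, to which no column was matched, and speak of 5 animals per genotype. Of 24020 genes in the count table, 10242 had enough counts to be tested. Each library is taken as 1 animal, and p-values measure the spread between these libraries.

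Wfs1 encodes wolframin, a glycoprotein in the membrane of the endoplasmic reticulum (ER). It is known for roles in ER calcium balance and in restraining the unfolded protein response, the signalling that raises chaperones when proteins misfold in the ER. Loss of both copies in people causes Wolfram syndrome, with diabetes mellitus, diabetes insipidus, optic atrophy and neurodegeneration. In the hypothalamus wolframin is found in peptide-secreting neurons, including those that make vasopressin.

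Total counts were 1401947 to 2329642 in the heterozygous and 979394 to 2330872 in the homozygous libraries. Values below are CPM, counts scaled to library size with TMM factors. These were 1.009 to 1.068 in the heterozygous and 0.934 to 0.997 in the homozygous libraries. A lower factor gives a higher CPM, so this scaling raised every homozygous library relative to every heterozygous one. Transcripts that define the tissue were counted in every library, among them Sim1 (41 to 79 counts), Six3 (52 to 133) and the orexin gene Hcrt (28 to 107). Otp, a further hypothalamic factor, had 0 to 5 counts in the heterozygous and 0 in the homozygous libraries. The pituitary hormone genes Gh and Prl had 0 counts in all 8. The Y-linked gene Ddx3y had 111 to 183 counts and Xist 0 to 7, so all 8 libraries look male.

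Homozygous replicates 4 and 5 stood apart from the other 6 libraries. Rn45s, the precursor of ribosomal RNA, was at 92.8 and 84.0 CPM in them, against 307 and 344 CPM in homozygous replicates 1 and 2 and 345 to 771 CPM in the heterozygous libraries. A GC score per library, the slope over genes of centred log2 CPM on the GC fraction of their transcripts, was −3.60 and −4.20 in these libraries and 0.634 to 2.98 in the others. Heterozygous replicate 2 lay at the opposite end, with the highest score and the highest Rn45s. The plot of GC score against Rn45s shows these positions. Called results below are given with and without homozygous replicates 4 and 5.

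**Figure D1:**
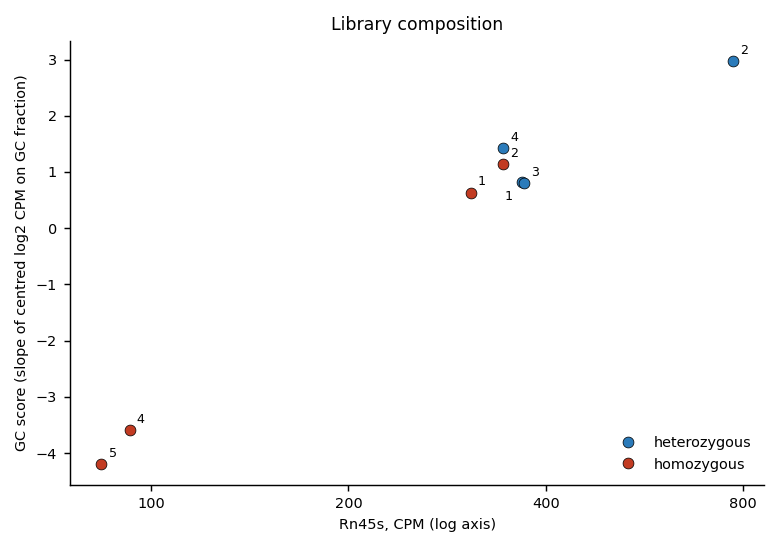
Each point is a library, numbered by replicate and coloured by genotype, with Rn45s in CPM on a log x axis and the GC score (slope of centred log2 CPM on GC fraction) on the y axis. Homozygous replicates 4 and 5 lie alone at the lower left, at scores of −3.60 and −4.20, and heterozygous replicate 2 has the highest score, 2.98.

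Wfs1 itself, at chr5:36966104-36989205 of mouse build mm10 on the minus strand, was far lower in homozygous mice. Its level was 82.1, 80.0, 100.2 and 87.9 CPM in heterozygous replicates 1 to 4 and 19.6, 17.1, 14.4 and 15.5 CPM in homozygous replicates 1, 2, 4 and 5. Every homozygous library lay far below every heterozygous one, and no library went against its label. The level was 87.6 ± 9.10 CPM in the heterozygous and 16.6 ± 2.25 CPM in the homozygous group (SD, n = 4), a 5.17-fold fall (log2 fold change −2.37, SE 0.180, adjusted p = 1.45e-06 by edgeR's quasi-likelihood test). The wild-type libraries averaged 143 ± 24.5 CPM (SD, n = 4). Without homozygous replicates 4 and 5 the log2 fold change was −2.25. Between 14 and 39 counts remained in each homozygous library, and counts per gene do not show which exons they come from.

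Beyond Wfs1, the contrast was one of modest rises. At an adjusted p under 0.05, 39 genes were higher in homozygous mice and 5 were lower, Wfs1 among them, which is 0.381% and 0.0488% of the genes tested (0.43% in all). The 39 higher genes had log2 fold changes of 0.52 to 1.27 (median 0.88), and 8 of them were more than 2-fold higher. Of the 5 lower genes, 3 were more than 2-fold lower, with Wfs1 and Deaf1 among them. The median over all genes tested was −0.0054. Of these 10242 genes, 5055 had a positive difference and 1955 an unadjusted p under 0.05 in edgeR's test. The edgeR counts given for lists below are to be read beside these. DESeq2 called more genes in all, and its list counts are to be read beside its own totals, given near the end of these results. All 4 homozygous libraries lay above all 4 heterozygous ones in 522 genes (5.1%), and below them in 462 (4.51%). In 43 of the 44 called genes the groups did not overlap. The exception was Cdr1.

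The fall of Wfs1 was the only call that did not depend on single libraries. Without any 1 heterozygous library, or without homozygous replicate 4, Wfs1 alone stayed called, and without homozygous replicate 5 it stayed with 7 others. Without homozygous replicates 4 and 5 together, 19 of the 44 stayed called, and the median of the 39 higher genes went from 0.88 to 0.55. In 36 of the 39 (92.3%, against 28.6% of all genes tested) both of these libraries lay above homozygous replicates 1 and 2, and in 31 of the 39 (79.5%, against 27.7%) heterozygous replicate 2 was the lowest of its group. The median GC content of transcripts was 43.2% in the 39 higher genes, 54.4% in the 5 lower and 48.9% in all genes tested. With the GC score of each library as a covariate, 7 of the 44 stayed called (Wfs1, Vsnl1, Nemf, Car10, Sgtb, Nefl and 2900052N01Rik), the others did not, and the median of the 39 higher genes was 0.47. With an offset for GC content per gene and library all 44 stayed called. All 44 kept their direction in each of the 22 alternative settings, which reuse the libraries that the calls came from.

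**Figure D2:**
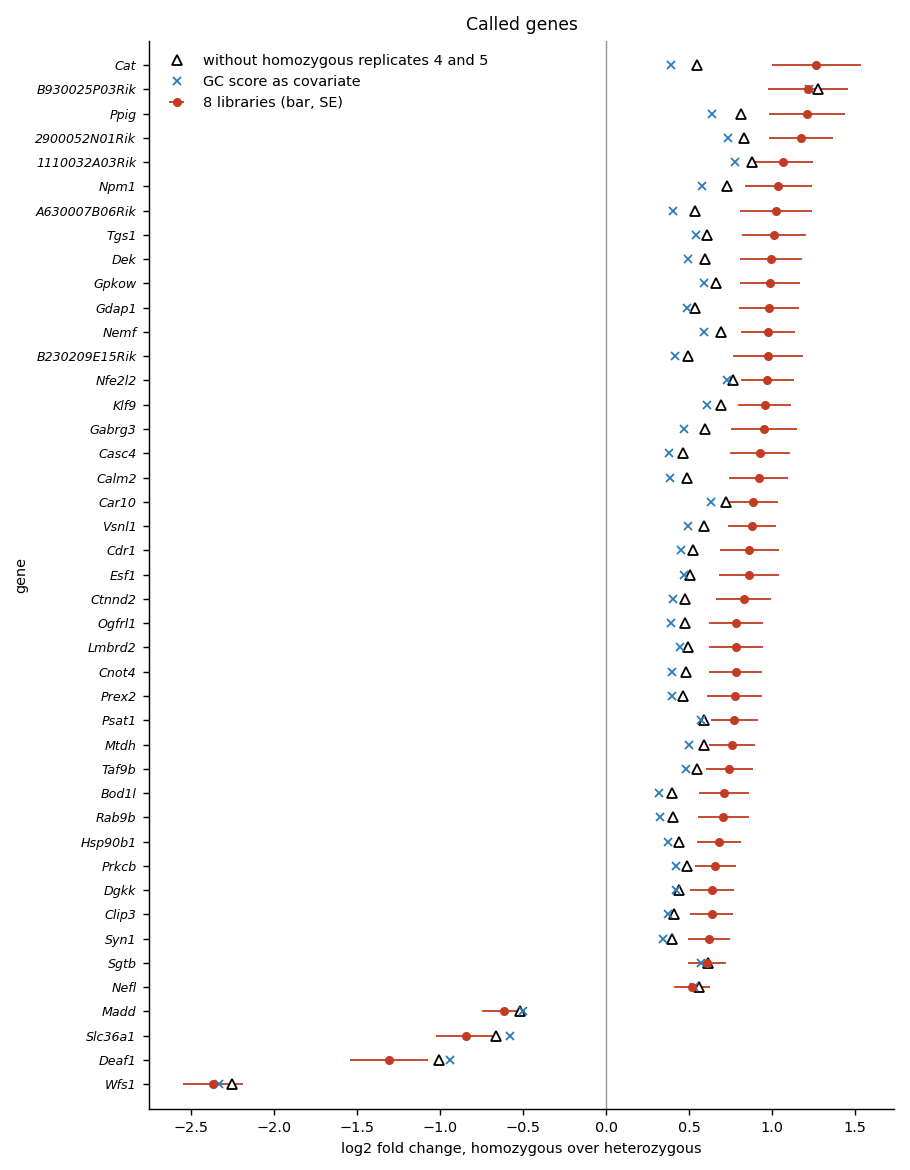
Called genes, 43 of the 44 (y axis), with their log2 fold change of homozygous over heterozygous (x axis) from 8 libraries (filled points, bars are SE), without homozygous replicates 4 and 5 (triangles) and with the GC score as covariate (crosses). The estimates of most rising genes move toward 0 without those libraries, from a median of 0.88 to 0.55, while Nefl (0.52 and 0.56), Sgtb (0.61 and 0.62) and Wfs1 (−2.37 and −2.25) stay near their place.

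Among regulators of transcription, Nfe2l2 had the smallest p of all 39 rises. It encodes NRF2, the factor that turns on antioxidant and detoxifying genes and that the ER stress kinase PERK can phosphorylate. Nfe2l2 (chr2:75675513-75704641, minus strand) stood at 50.8, 52.2, 55.1 and 56.5 CPM in the heterozygous and at 93.3, 88.1, 134 and 108 CPM in the homozygous libraries. The heterozygous libraries were close together, and the lowest homozygous library was well above all of them. The rise was 1.96-fold (log2 fold change 0.97, SE 0.159, adjusted p = 0.0238), and 0.76 on the log2 scale, still called, without homozygous replicates 4 and 5. Wild-type libraries averaged 46.7 ± 14.6 CPM (SD, n = 4), near the heterozygous mean of 53.7 ± 2.61 CPM.

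NRF2 binds antioxidant response elements, and its own promoter is among those it is known to bind. The RefSeq window from 250 bases before to 50 bases after the Nfe2l2 start (chr2:75704614-75704913 of GRCm38.p6, the mm10 assembly, minus strand) is printed because it holds 1 core of that element, TGACNNNGC searched on both strands, in capitals.
Nfe2l2: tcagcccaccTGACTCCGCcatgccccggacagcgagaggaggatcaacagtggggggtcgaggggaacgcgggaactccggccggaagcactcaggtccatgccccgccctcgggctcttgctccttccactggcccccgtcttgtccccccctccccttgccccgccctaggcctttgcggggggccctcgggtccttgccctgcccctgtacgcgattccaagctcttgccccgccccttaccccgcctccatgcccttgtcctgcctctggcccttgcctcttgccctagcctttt
The core begins 240 bases before the start. It is short and common: counted per gene, with a match in any of its windows, 14% of the 27025 genes with a window hold it, 17% of the 8020 tested genes with one, and 3 of the 30 called higher genes with one (10%). The match is a description of letters, not a site shown to be bound.

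Catalase (Cat), the peroxisomal enzyme that breaks down hydrogen peroxide, was edgeR's only call among 21 antioxidant genes tested, and the median of that list was −0.12 against −0.0054 over all genes. With DESeq2 none of the 21 was called, and 2 had an unadjusted p under 0.05 in edgeR's test. Gclc and Gclm, the subunits of the enzyme that starts glutathione synthesis, had log2 differences of 0.03 and 0.0033, and 2 further genes that NRF2 is known to induce, Srxn1 (sulfiredoxin) of −0.0043 and Txnrd1 (thioredoxin reductase) of −0.24. Cat stood at 83.4, 67.7, 117 and 98.2 CPM in the heterozygous and at 129, 135, 281 and 347 CPM in the homozygous libraries. The homozygous group split, with replicates 1 and 2 just above the highest heterozygous library and replicates 4 and 5 far above it. Its log2 fold change of 1.27 (SE 0.268, adjusted p = 0.0472) was 0.55 without replicates 4 and 5, the largest such drop among the 44 genes.

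Klf9 and Deaf1 moved in opposite directions. Klf9, a zinc finger transcription factor that thyroid hormone and glucocorticoids induce in neurons, was at 137, 131, 166 and 182 CPM in heterozygous and 278, 219, 337 and 368 CPM in homozygous libraries (log2 fold change 0.96, SE 0.161, adjusted p = 0.0238; 0.69 and still called without homozygous replicates 4 and 5). All homozygous libraries were above all heterozygous ones. Of the 13 tested genes of the thyroid hormone and retinoid list, edgeR and limma-voom each called 1 higher, in edgeR Klf9, and DESeq2 called 2. Dio2, which activates thyroid hormone, was at 29.1 ± 9.86 against 69.0 ± 32.5 CPM (SD, n = 4) with overlapping groups and an adjusted p of 0.0696 by edgeR and 0.01495 by DESeq2. Deaf1, a transcription factor of neuronal development, fell from 43.2, 45.7, 33.7 and 48.1 CPM to 21.5, 21.0, 9.59 and 14.4 CPM (log2 fold change −1.31, SE 0.234, adjusted p = 0.0324; −1.01 and still called without those replicates). Homozygous replicates 4 and 5 were the lowest, and replicates 1 and 2 were still below every heterozygous library. Wild-type libraries averaged 46.0 ± 3.15 CPM for Deaf1 (SD, n = 4), close to the heterozygous 42.7 ± 6.34 CPM.

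A further 4 nuclear regulators rose. Dek, a chromatin protein that binds histones, rose by 0.99 on the log2 scale (SE 0.186), from 94.1 ± 12.7 to 189 ± 56.4 CPM (SD, n = 4). Its wild-type mean was 53.9 ± 5.14 CPM (SD, n = 4). Taf9b, a subunit of transcription initiation complexes, rose by 0.74 (SE 0.142), and Mtdh, an RNA-binding scaffold linked to NF-κB signalling, by 0.76 (SE 0.139). Bod1l, which protects stalled replication forks and lies within 10 Mb of Wfs1 on chromosome 5, rose by 0.71 (SE 0.151). It was the only called gene of 106 tested within 10 Mb of Wfs1, which is 0.943%, and the median log2 fold change of these neighbours was −0.072. Of these 4, Mtdh alone stayed called without homozygous replicates 4 and 5.

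In the ER, edgeR called 1 chaperone, Hsp90b1, and none of the sensors of the unfolded protein response. Hsp90b1 encodes GRP94, the HSP90 of the ER lumen, which folds secreted and membrane proteins. Hsp90b1 (chr10:86690209-86705509, minus strand) stood at 999.7, 872, 1117 and 1135 CPM in heterozygous and at 1415, 1371, 2019.7 and 1809.7 CPM in homozygous libraries. All homozygous libraries were above all heterozygous ones, with replicates 4 and 5 the highest. The rise was 1.60-fold (log2 fold change 0.68, SE 0.135, adjusted p = 0.0369), 0.44 on the log2 scale and not called without those replicates. Wild-type libraries averaged 679 ± 129 CPM (SD, n = 4).

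It was edgeR's only call of 23 chaperones and disulfide isomerases tested (median log2 fold change 0.096), of which DESeq2 called 2 higher and limma-voom 1. In 3 of the 23 the homozygous libraries lay above all heterozygous ones, against 5.1% of all genes tested. The other pair with no overlap was Pdia3, a disulfide isomerase (331 ± 61.3 against 552 ± 152 CPM, SD, n = 4; log2 difference 0.74, adjusted p = 0.0588), and Canx, the lectin chaperone calnexin (0.28, adjusted p = 0.187). Hspa5, the master chaperone BiP, was at 408 ± 61.5 against 413 ± 51.8 CPM (SD, n = 4), a log2 difference of 0.02 (SE 0.132). For Calr, the calcium-binding chaperone calreticulin, the difference was 0.08 (SE 0.170). None of the 16 tested sensors and transcription factors of the response was called by edgeR, DESeq2 or limma-voom, and 0 had an unadjusted p under 0.05. Among them Xbp1 stood at −0.26 (SE 0.146), Atf4 at −0.07 (SE 0.162), Ddit3, which encodes CHOP, at 0.11 (SE 0.265) and Creb3l2 at 0.35 (SE 0.217) on the log2 scale. Of 17 genes of ER-associated degradation none was called by any of the 3 tools (3 with an unadjusted p under 0.05), and the smallest p was that of the mannosidase-like Edem3 (0.48, adjusted p = 0.103).

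Hsp90b1 shares a promoter element with ER chaperones whose levels did not pass the test. The ER stress element, CCAAT and CCACG with 9 bases between them, is the textbook site of ATF6 and XBP1 with NF-Y. Searched on both strands as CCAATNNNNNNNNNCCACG, it occurred in 39 of 32851 RefSeq promoter windows (0.119%). Counted per gene, 37 of 27025 genes with a window held it in at least 1 window (0.137%), as did 14 of the 8020 tested genes with one (0.175%). Of the 19 listed ER chaperones with a window, 7 held it: Hspa5, Hsp90b1, Calr, Canx, Pdia6, Dnajc3 and Creld2. The windows of Hsp90b1 (chr10:86705395-86705694, minus strand), Hspa5 (chr2:34771840-34772139, plus strand) and Calr (chr8:84846882-84847181, minus strand) of GRCm38.p6 are shown to set the called gene beside those with the smallest differences among the 7, with the element in capitals.
Hsp90b1: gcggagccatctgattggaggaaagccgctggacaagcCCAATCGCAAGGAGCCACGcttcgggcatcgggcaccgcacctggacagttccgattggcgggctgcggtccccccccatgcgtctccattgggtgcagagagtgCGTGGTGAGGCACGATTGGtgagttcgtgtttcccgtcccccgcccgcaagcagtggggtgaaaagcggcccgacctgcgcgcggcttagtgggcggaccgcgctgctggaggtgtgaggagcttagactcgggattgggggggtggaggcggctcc
Hspa5: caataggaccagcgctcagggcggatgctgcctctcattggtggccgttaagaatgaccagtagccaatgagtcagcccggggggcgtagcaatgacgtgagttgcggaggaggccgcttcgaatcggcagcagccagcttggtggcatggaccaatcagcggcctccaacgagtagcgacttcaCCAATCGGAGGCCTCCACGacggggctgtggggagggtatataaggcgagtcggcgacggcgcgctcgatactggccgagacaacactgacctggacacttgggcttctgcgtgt
Calr: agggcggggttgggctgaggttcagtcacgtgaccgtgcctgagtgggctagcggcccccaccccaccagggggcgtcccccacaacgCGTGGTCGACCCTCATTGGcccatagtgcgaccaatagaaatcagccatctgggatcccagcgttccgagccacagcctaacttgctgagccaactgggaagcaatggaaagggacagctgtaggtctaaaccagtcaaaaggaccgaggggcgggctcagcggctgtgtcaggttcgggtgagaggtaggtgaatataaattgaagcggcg
Hsp90b1 holds the element in each direction, beginning 212 bases before the start and, reversed, 107 bases before it. Hspa5 has 1 exact match, 65 bases before the start, and Calr has 1, reversed, 162 bases before it. The exact search misses copies with a changed letter. Of the 7 genes, edgeR called Hsp90b1 alone, and the other 6 had log2 differences of 0.02 (Hspa5), 0.08 (Calr), 0.20 (Dnajc3), 0.25 (Creld2), 0.28 (Canx) and 0.43 (Pdia6).

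Sgtb, a cytosolic co-chaperone that hands client proteins to HSP70 and HSP90, rose by nearly the same amount with and without homozygous replicates 4 and 5. It stood at 364, 355, 463 and 415 CPM in heterozygous and at 623, 594, 568 and 645 CPM in homozygous libraries. The homozygous libraries were close together and all above the heterozygous ones, and replicate 4 was the lowest of them. The log2 fold change was 0.61 (SE 0.116, adjusted p = 0.0343) and 0.62 without homozygous replicates 4 and 5. The call itself stayed in 2 of the 8 fits that left out 1 library. None of the 20 tested cytosolic heat shock genes was called by edgeR (4 with an unadjusted p under 0.05, median 0.10) or limma-voom, and 1 by DESeq2, with Hspa4, an HSP110-type chaperone, at 0.62 (adjusted p = 0.0756).

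**Figure D3:**
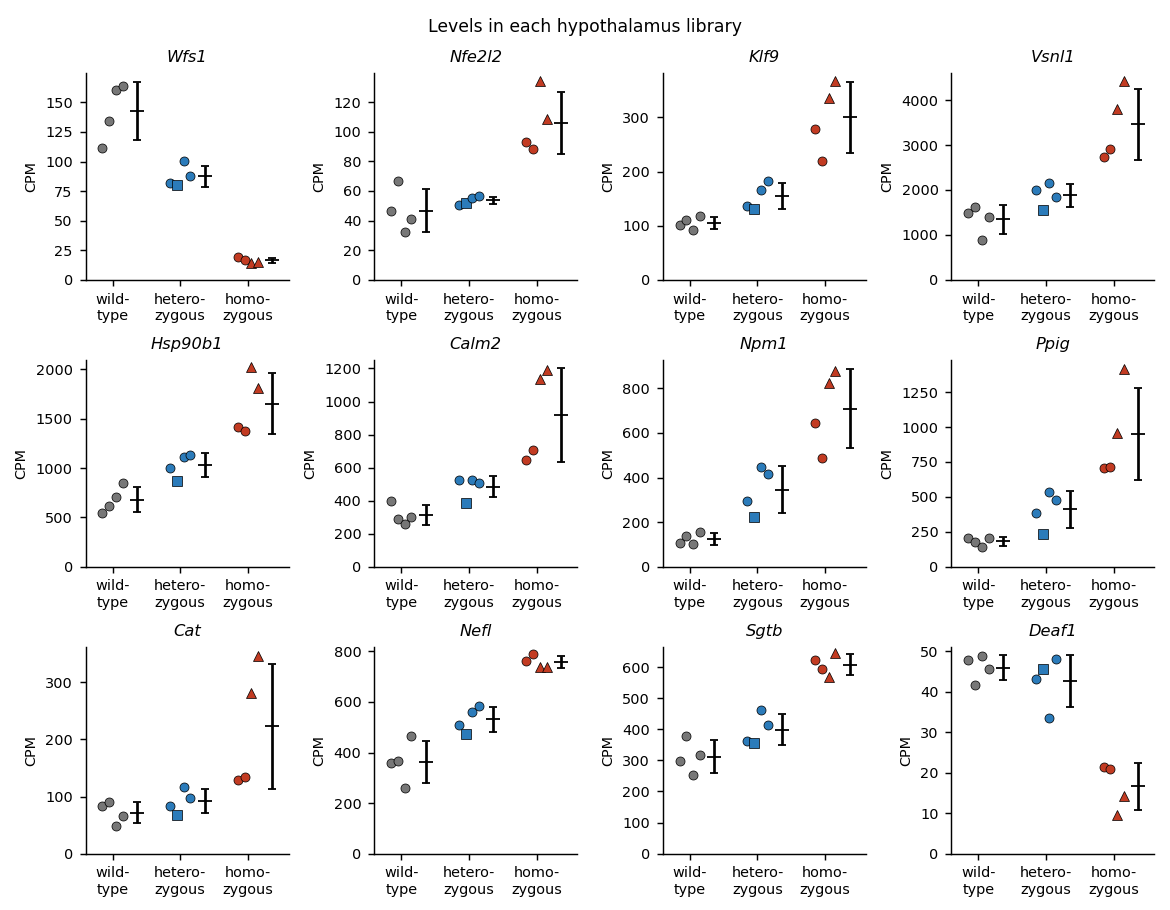
Levels in CPM (y axes, from 0) of 12 genes in each wild-type, heterozygous and homozygous library (points), with the group mean and SD beside them (n = 4); squares mark heterozygous replicate 2 and triangles homozygous replicates 4 and 5. Wfs1 (14.4 to 19.6 CPM in homozygous libraries) and Deaf1 lie below the heterozygous libraries and the other 10 genes above them, with the triangles highest in Cat, Calm2, Ppig and Npm1 but not in Nefl.

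Ppig, a cyclophilin of the spliceosome with an arginine-serine tail, had the largest called rise among genes with an established symbol after Cat. Ppig stood at 388, 238, 538 and 477 CPM in heterozygous and 709, 715, 960.2 and 1415 CPM in homozygous libraries (log2 fold change 1.21, SE 0.228, adjusted p = 0.0343). Heterozygous replicate 2 was the lowest and homozygous replicate 5 the highest, and the groups did not overlap. Without homozygous replicates 4 and 5 the value was 0.81. The wild-type mean was 182 ± 30.5 CPM, below the heterozygous mean of 410 ± 130 CPM (SD, n = 4). Of 51 splicing and nuclear RNA-binding genes tested, edgeR called Ppig alone, DESeq2 2 higher and limma-voom 1 higher, and 37 had a positive difference (median 0.14). In 5 of the 51 the homozygous libraries lay above all heterozygous ones (Ppig, Pnn, Son, Clk4 and Hnrnph1) and in 2 below them (Srsf6 and Hnrnpc). Over all genes tested these shares were 5.1% and 4.51%, and 5055 of 10242 had a positive difference.

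Npm1 encodes nucleophosmin, a nucleolar chaperone of ribosome assembly and histones. It stood at 296, 223, 448 and 416 CPM in heterozygous and 647, 488, 824 and 879 CPM in homozygous libraries. The lowest homozygous value, in replicate 2, was only just above the highest heterozygous value, in replicate 3. The log2 fold change was 1.04 (SE 0.202, adjusted p = 0.0362), and 0.73 without homozygous replicates 4 and 5. The wild-type mean was 126 ± 26.2 CPM, below the heterozygous mean of 346 ± 105 CPM (SD, n = 4). Processed pseudogenes of Npm1 are near-identical copies, and some of its reads could come from them. It was edgeR's only call of 24 genes in the nucleolar list (median 0.11), of which DESeq2 called 2 higher and limma-voom 1. In this list Dkc1, the pseudouridine synthase of the box H/ACA complex, had a difference of 0.91 (adjusted p = 0.0596) with no overlap. Rn45s was at 464 ± 205 against 207 ± 138 CPM (SD, n = 4; −1.13, adjusted p = 0.122), with every homozygous library below every heterozygous one. The groups nearly touched, at 344.1 CPM in homozygous replicate 2 and 344.6 CPM in heterozygous replicate 4. Homozygous replicates 4 and 5 were far lower, at 92.8 and 84.0 CPM.

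Nemf, the factor that recognises nascent chains jammed on the large ribosomal subunit, stood at 122, 87.7, 125 and 114 CPM in heterozygous and 177, 180.2, 262 and 263 CPM in homozygous libraries. Homozygous replicates 1 and 2 were nearly equal, as were replicates 4 and 5 at a higher level, and all were above the heterozygous libraries. The log2 fold change was 0.98 (SE 0.163, adjusted p = 0.0238) and 0.70 without replicates 4 and 5. The RNA-binding spliceosome protein Gpkow rose by 0.99 (SE 0.182), and Tgs1, which adds the trimethylguanosine cap to small nuclear RNAs, by 1.01 (SE 0.194). The nucleolar processing factor Esf1 rose by 0.86 (SE 0.182) and Cnot4, a ubiquitin ligase associated with the CCR4-NOT complex, by 0.78 (SE 0.161). Nemf and Gpkow stayed called without those replicates, and Tgs1, Esf1 and Cnot4 did not. None of the 15 tested cytosolic ribosomal protein genes was called by the 3 tools (3 with an unadjusted p under 0.05, median −0.060).

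Vsnl1 encodes visinin-like protein 1, a neuronal calcium sensor that moves to membranes when calcium rises. Vsnl1 (chr12:11325242-11436613) stood at 2005, 1545, 2147 and 1837 CPM in heterozygous and 2741, 2900.4, 3800.2 and 4419 CPM in homozygous libraries. The groups were well apart, with replicates 4 and 5 the highest. The log2 fold change was 0.88 (SE 0.146, adjusted p = 0.0238), and 0.59 without those replicates, where the gene stayed called. The wild-type libraries averaged 1348 ± 321 CPM (SD, n = 4).

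Calm2, which encodes the calcium sensor calmodulin, stood at 525, 388, 523 and 504 CPM in heterozygous and 645, 704, 1139 and 1189 CPM in homozygous libraries (log2 fold change 0.92, SE 0.178, adjusted p = 0.0350; 0.49 and not called without homozygous replicates 4 and 5). Its homozygous group formed 2 pairs, replicates 1 and 2 below replicates 4 and 5. Calm3, which encodes the same protein, did not pass the test, with a difference of −0.29 (SE 0.192). In the list of ER calcium genes and wolframin partners Calm2 was edgeR's only call of 19, and DESeq2 and limma-voom each called 1 higher. Cisd2, the gene of the second type of Wolfram syndrome, was at 0.36 (adjusted p = 0.482), the calcium pump Atp2a2 at 0.08 and the IP3 receptor Itpr1 at 0.08. Ncs1, a neuronal calcium sensor that binds wolframin, was at 85.4 ± 23.4 against 55.3 ± 10.1 CPM (SD, n = 4; −0.62, adjusted p = 0.122), with all homozygous libraries below the heterozygous ones.

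Prkcb, the kinase PKC beta that calcium and diacylglycerol activate, rose by 0.66 on the log2 scale (SE 0.125), from 544 ± 60.5 to 859 ± 121 CPM (SD, n = 4), and stayed called without homozygous replicates 4 and 5 (0.49). Dgkk, a diacylglycerol kinase, rose by 0.64 (SE 0.132), and Prex2, a Rac exchange factor, by 0.78 (SE 0.165). Neither was called without those replicates.

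Syn1 encodes synapsin 1, which tethers synaptic vesicles. It stood at 973, 807, 886 and 959 CPM in heterozygous and 1159, 1218, 1666 and 1540.1 CPM in homozygous libraries (log2 fold change 0.62, SE 0.127, adjusted p = 0.0443; 0.40 and not called without homozygous replicates 4 and 5). It was edgeR's only call of 32 genes of vesicle release (median −0.0062), of which DESeq2 called 1 higher and 1 lower and limma-voom 1 higher. The related Syn2 and Syn3 had differences of −0.22 and 0.28. In bulk tissue, a change in the number of cells of a type and a change in RNA per cell cannot be told apart.

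Nefl, the light chain of neurofilaments, which give axons their calibre, stood at 507, 472, 561 and 583 CPM in heterozygous and 763, 791, 740.4 and 738 CPM in homozygous libraries. The homozygous libraries were close together, and here replicates 4 and 5 were the lowest of the group. The log2 fold change was 0.52 (SE 0.108, adjusted p = 0.0472) and 0.56 without replicates 4 and 5, still called. Nefl was edgeR's only call of 29 cytoskeletal genes (median 0.083), of which DESeq2 called 2 higher and limma-voom 1. Its partner Nefm had the same difference, 0.52, with overlapping groups (SE 0.178, adjusted p = 0.142), while Ina, alpha-internexin, was at −0.36 and Nefh at 0.20.

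Gabrg3, the gamma 3 subunit of the GABA-A receptor, stood at 91.5, 53.5, 72.3 and 59.0 CPM in heterozygous and 102, 104, 164 and 168 CPM in homozygous libraries (log2 fold change 0.95, SE 0.1998, adjusted p = 0.0472; 0.60 and not called without homozygous replicates 4 and 5). It was edgeR's only call of 34 GABA and glutamate receptor genes (median −0.079). An unadjusted p under 0.05 was seen in 10 of the 34, against 1955 of 10242 over all genes tested. DESeq2 called 3 of the 34 higher and limma-voom 0. Car10, a carbonic anhydrase-related protein without enzyme activity that is secreted and binds neurexins, stood at 264, 206, 342 and 316 CPM in heterozygous and 457, 466, 616 and 542 CPM in homozygous libraries. All homozygous values were above all heterozygous ones, and the log2 fold change of 0.89 (SE 0.152, adjusted p = 0.0250) stayed called without replicates 4 and 5 (0.73).

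Madd, the exchange factor that activates the vesicle GTPase RAB3, was lower: 199, 215, 218 and 233 CPM in heterozygous and 129, 169.6, 124 and 139 CPM in homozygous libraries (log2 fold change −0.62, SE 0.130, adjusted p = 0.0472). The groups did not overlap, and homozygous replicate 2 was the nearest to the heterozygous libraries. Madd was not called without replicates 4 and 5 (−0.52). Among other rises, Ctnnd2, delta-catenin of dendrites, rose by 0.83 (SE 0.167), Clip3, a trafficking protein of the trans-Golgi network, by 0.64 (SE 0.129) and the endosomal GTPase Rab9b by 0.71 (SE 0.152). None of these 3 was called without replicates 4 and 5.

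Psat1, an enzyme of serine synthesis, stood at 127, 114, 90.2 and 114 CPM in heterozygous and 171, 164, 223 and 208 CPM in homozygous libraries. The groups did not overlap, and the log2 fold change of 0.77 (SE 0.144, adjusted p = 0.0343) stayed called without homozygous replicates 4 and 5 (0.59). Gdap1, a protein of the outer mitochondrial membrane whose loss causes a hereditary neuropathy, rose by 0.98 (SE 0.183) and was 0.54 and still called without them. Slc36a1, a proton-coupled amino acid transporter of lysosomes, was lower at 56.4, 65.7, 54.4 and 56.5 CPM in heterozygous against 32.6, 40.3, 29.6 and 24.3 CPM in homozygous libraries (−0.84, SE 0.181, adjusted p = 0.0482; −0.66 and not called without them).

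None of the 50 oxidative phosphorylation genes was called by edgeR (14 with an unadjusted p under 0.05, median −0.082), and DESeq2 and limma-voom each called 1 higher and 1 lower. Over all genes tested, 1955 of 10242 had an unadjusted p under 0.05 in edgeR's test. The ATP synthase subunit Atp5b was at 1977 ± 128 against 2822 ± 432 CPM (SD, n = 4; 0.51) and the cytochrome oxidase subunit Cox4i1 at 139 ± 19.6 against 70.5 ± 27.9 CPM (−0.94), both with an adjusted p of 0.0532. Fis1, an adaptor of mitochondrial fission, was at 23.4 ± 2.18 against 8.35 ± 5.88 CPM (SD, n = 4; −1.35, adjusted p = 0.0666), the lowest value being 2.21 CPM in homozygous replicate 5. Of the 16 glycolytic genes tested none was called by edgeR (6 with an unadjusted p under 0.05, median −0.19) or limma-voom, and DESeq2 called 1 higher and 1 lower, with Pkm2 at −0.64 and Aldoc at 0.47. In 2 of the 16 every homozygous library lay above every heterozygous one, and in 4 every one lay below. Over all genes tested these shares were 5.1% and 4.51%. Of 18 genes of cholesterol synthesis and uptake none was called by edgeR (4 with an unadjusted p under 0.05, median −0.16) or limma-voom, and 1 lower by DESeq2, with the regulator Srebf2 at −0.67 (adjusted p = 0.0700).

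The remaining called genes have roles that are less certain or uncertain reads. Casc4, a Golgi membrane protein, rose by 0.93 (SE 0.182), Ogfrl1 by 0.79 (SE 0.162) and Lmbrd2, a membrane protein, by 0.78 (SE 0.164). Counts under Cdr1 were 412, 319, 392 and 488 CPM in heterozygous and 468, 677, 896 and 890.5 CPM in homozygous libraries (0.86, SE 0.178, adjusted p = 0.0443). Homozygous replicate 1 was below heterozygous replicate 4, and the wild-type mean was 146 ± 34.7 CPM (SD, n = 4). The locus also gives a circular RNA from the opposite strand, and without the strand of the counts these transcripts cannot be told apart. None of these 4 was called without homozygous replicates 4 and 5.

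The last 5 called genes are provisional models, which the rule for naming genes passed over, and they are named after their values were seen. B930025P03Rik rose from 9.79 ± 1.46 to 22.6 ± 2.38 CPM (SD, n = 4), 2900052N01Rik from 159 ± 25.0 to 359.7 ± 124 CPM and 1110032A03Rik from 46.1 ± 9.31 to 96.7 ± 19.1 CPM. These 3 stayed called without homozygous replicates 4 and 5, at log2 fold changes of 1.28, 0.83 and 0.88. A630007B06Rik (1.02) and B230209E15Rik (0.98) did not stay called.

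The peptides for which the hypothalamus is known had no called difference. None of 22 neuropeptide genes was called by edgeR, DESeq2 or limma-voom (5 with an unadjusted p under 0.05, median −0.17). Of the 22, 7 were positive, against 5055 of 10242 over all genes tested. Vasopressin (Avp) had a log2 difference of −0.46 (SE 0.435), oxytocin (Oxt) of −0.36 (SE 0.296) and somatostatin (Sst) of 0.35 (SE 0.161). Hcrt was at 49.5 ± 4.67 against 34.4 ± 8.86 CPM (SD, n = 4; adjusted p = 0.188) and Cck at 52.5 ± 16.1 against 77.2 ± 29.7 CPM (adjusted p = 0.236). Melanin-concentrating hormone (Pmch) had a difference of −0.03 (SE 0.157).

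Of 31 receptors for such peptides none was called by edgeR or limma-voom, and 3 were called higher by DESeq2. In edgeR's test 9 had an unadjusted p under 0.05, against 1955 of 10242 over all genes tested. A positive difference was seen in 23 of the 31 (median 0.16), against 5055 of 10242 over all genes tested. In 5 of the 31 (Oxtr, Avpr1a, Ghsr, Npy2r and Oprk1) every homozygous library lay above every heterozygous one, against 5.1% of all genes tested. Oxtr, the oxytocin receptor, stood at 12.5, 15.1, 15.8 and 11.5 CPM in heterozygous and 30.7, 23.2, 25.6 and 40.9 CPM in homozygous libraries (1.08, SE 0.239), just outside the threshold at an adjusted p of 0.0519. Avpr1a, a vasopressin receptor, stood at 8.77, 5.71, 6.44 and 7.06 CPM and 11.1, 12.7, 21.6 and 22.1 CPM (1.22, SE 0.314, adjusted p = 0.0756). Both are receptors of low counts, and homozygous replicate 5 was the highest library in each.

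Genes that process prohormones were divided, with none of 19 called by the 3 tools (8 with an unadjusted p under 0.05, median −0.15). Chgb, the granin chromogranin B, was at 1078 ± 194 against 1396 ± 95.6 CPM (SD, n = 4; 0.37) and Ctsb, cathepsin B, at 455 ± 52.8 against 335 ± 52.4 CPM (−0.44), each with no overlap. In 2 of the 19 (Chgb and Ctsl) every homozygous library lay above every heterozygous one. In 5 (Scg5, Pam, Sort1, Furin and Ctsb) every homozygous library lay below. Over all genes tested these shares were 5.1% and 4.51%. Of 12 immediate early genes, which report recent neuronal activity, none was called by edgeR (5 with an unadjusted p under 0.05, median −0.23) or limma-voom, and 1 higher by DESeq2. Fos was at 18.8, 22.04, 20.1 and 17.97 CPM in heterozygous and 7.83, 12.3, 12.8 and 2.21 CPM in homozygous libraries (−1.07, adjusted p = 0.103), with no overlap, and Homer1 at 52.3 ± 3.17 against 76.3 ± 4.46 CPM (0.54). The circadian clock (19 tested), corticosteroid response (14), insulin, IGF and growth hormone signalling (20) and proteasome (27) lists also had no call by any of the 3 tools, with 6, 7, 4 and 5 genes at an unadjusted p under 0.05. With edgeR the lists with calls numbered 11 of 43, with 1 call each. In the plot of list members the called gene is the rightmost of its list except among the ER chaperones, where Pdia3 lies beyond Hsp90b1, and the cytoskeletal genes, where Nefm lies level with Nefl.

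**Figure D4:**
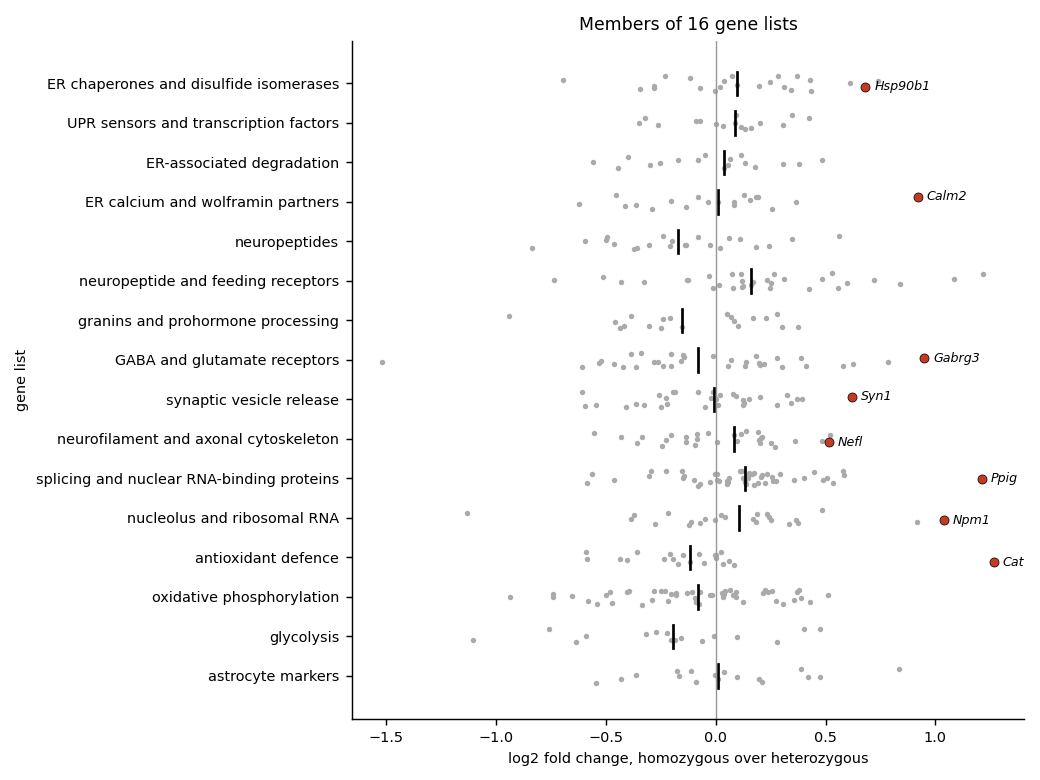
Log2 fold change of homozygous over heterozygous (x axis) for the tested members of 16 gene lists (y axis); grey points are not called, red points are called by edgeR and named, and black bars are list medians. No list shown has more than 1 gene called by edgeR, and the medians lie between −0.19 (glycolysis) and 0.16 (neuropeptide and feeding receptors).

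Markers of the cell types in the tissue gave 1 call by edgeR, Nefl in the neuron list (1 of 15). Summed over the astrocyte list of 17 genes, heterozygous libraries held 9795 to 10160 CPM and homozygous libraries 11420 to 12280 CPM, with no overlap. The list's median was 0.010, none of its genes was called by edgeR or limma-voom, and 3 were called higher by DESeq2 (6 with an unadjusted p under 0.05 in edgeR's test). Slc1a2, the main glutamate transporter, was at 2736 ± 140.0 against 3578 ± 445 CPM (SD, n = 4; 0.39, adjusted p = 0.0890). Aqp4, the water channel of astrocyte endfeet, was at 179.7 ± 10.9 against 323 ± 109 CPM (0.84), just outside the threshold at an adjusted p of 0.0519, while Gfap was at −0.17 and Slc1a3 at 0.01.

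Sums also lay apart for oligodendrocyte precursors (1334 to 1410 against 1448 to 1611 CPM), choroid plexus (426 to 501 against 529 to 717 CPM), the pituitary list (850.5 to 1300 against 1321 to 1530 CPM) and hypothalamic transcription factors (3851 to 4593 against 4889 to 5238 CPM), again with no gene called by any of the 3 tools. Of the choroid plexus list 3 of 10 genes had enough counts to be tested and entered the sum, and of the pituitary list 2 of 9. The precursor sum is largely Ptprz1 (815 ± 36.2 against 971 ± 51.5 CPM, SD, n = 4). Gpr17 of that list was at −0.49 on the log2 scale, and 5 of its 9 genes were positive (median 0.020). Enpp2 (319 against 411 CPM) and Prlr (132 against 192 CPM) make up most of the choroid plexus sum. The pituitary sum is largely Chgb, which neurons also express, and Gh and Prl were at 0. For hypothalamic factors the abundant imprinted gene Peg3 was at 3507 ± 355 against 4418 ± 119.8 CPM (SD, n = 4; 0.33), and the list's median was −0.0031. Sums overlapped between the groups for oligodendrocytes (3666 to 4911 against 3195 to 4823 CPM), microglia (308 to 344 against 328 to 372 CPM), endothelium and pericytes (711 to 777 against 579 to 789 CPM) and neurons (8039 to 9410 against 8887 to 10770 CPM). Sums apart were not particular to marker lists. They lay apart in the same direction for ER chaperones (3590 to 4113 against 4347 to 5498 CPM) and oxidative phosphorylation (6554 to 6733 against 6973 to 8550 CPM). So did those of glycolysis (2572 to 2726 against 2753 to 3078 CPM). The medians of the last 2 lists were −0.082 and −0.19. Other pathway sums overlapped, such as splicing (10890 to 13250 against 13080 to 15560 CPM). The part of the cell types in the differences of single genes was not tested.

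The number of called genes changed with the libraries and the method. Without homozygous replicate 1 the counts were 387 higher and 95 lower, and without replicate 2 they were 389 and 191, while without replicate 4 they were 0 and 1. DESeq2 called 183 higher and 36 lower of the 10242 genes tested, the totals beside which its list counts above are to be read. A fit of all 12 libraries called 187 and 49. At an adjusted p under 0.1 the 8 libraries gave 298 genes. The plot of calls by setting sets these side by side.

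**Figure D5:**
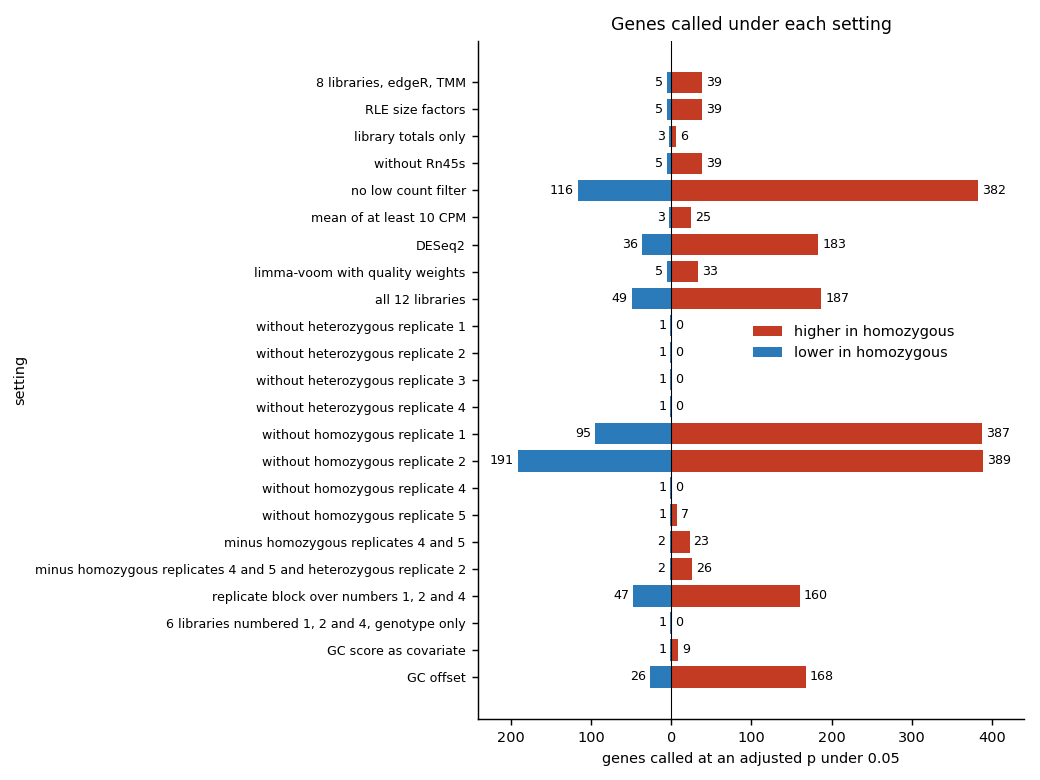
Number of genes called at an adjusted p under 0.05 (x axis; red, higher in homozygous; blue, lower) under each setting of libraries, scaling, filter, test or covariate (y axis). Leaving out 1 library gives 0 to 389 higher and 1 to 191 lower calls, and the 5 settings that leave out a heterozygous library or homozygous replicate 4 each have 0 higher and 1 lower.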

How the data were processed

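RNA of 12 hypothalamus samples was measured, 4 of each genotype, of which 8 enter this comparison. Per the labels' protocols, 50 ng of total RNA was amplified with the Ovation RNA-Seq System V2 and sequenced on a SOLiD 5500xl (75 and 35 bp pairs). The authors deposited raw counts per gene symbol. The build was mm10, per the submitters' processing notes. Aligner, annotation and counting strand remain not given in the sources used here.

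Counts of the 8 libraries were fitted with edgeR 4.0.16 under R 4.3.3 (TMM factors, default low-count filter, quasi-likelihood F test, genotype only, 6 residual degrees of freedom). The common biological coefficient of variation was 0.157. Calls are Benjamini-Hochberg adjusted p under 0.05 over 10242 genes, and p-values printed beside genes are from this fit. SE is an approximate standard error of a log2 fold change, its absolute value divided by the square root of the test's F value. It is less dependable for differences near 0. Symbols matched GENCODE M21 for coordinates and GC (20717 directly, 1880 by an older symbol, 1423 not). Promoter windows are RefSeq's (GRCm38.p6). The script was tested on simulated data.

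Totals of 979394 to 2330872 counts limit precision for low genes. Replicate numbers were checked for pairing (correlations −0.12, 0.36 and 0.037 for numbers 1, 2 and 4). The libraries numbered 2 were each other's best match, and those numbered 1 and 4 were not. Whether the numbers pair the samples was not settled, and the fit does not use them. The members and lists were chosen with earlier results of these data known. Named are Wfs1, the 12 most positive and 12 most negative calls, 6 calls each way by CPM difference, and up to 4 called genes per list by p, or at most 2 as values where none is called. Provisional models and genes under 1 CPM were passed over, and the other 20 called genes are named outside this rule. Of the called genes, 1 is left out of the text. Further list members are given for their role. The alternatives varied scaling, filter, test, libraries, block and GC correction (DESeq2 1.42.0, limma 3.58.1).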

Additional observations from a re-analysis of the deposited data

Results flagged for a closer look

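Groups of 4 libraries were searched for a library whose gap to its nearest neighbour took up most of the group's range (past Dixon's limit for 4 values, which chance passes in about 1 group in 20). Of 210 groups looked at, 6 passed. Heterozygous replicate 2 accounts for 4 of them. Calm2, a calmodulin gene called higher, was lowest there at 388 CPM, against 504 CPM in the nearest library. In the same library 3 genes without a call were highest: the lysosomal protease Ctsb at 534 CPM (nearest 437), the GABA transporter Slc6a11 at 895 CPM (nearest 691) and the sterol regulator Srebf2 at 108 CPM (nearest 78.3). The Y-linked translation factor Eif2s3y was highest in homozygous replicate 5, at 30.9 CPM (nearest 24.8). Tspan2, a myelin membrane protein, was highest in heterozygous replicate 3, at 310 CPM (nearest 287).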

How the results depend on the processing

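Genes called higher and lower were 39 and 5. They were 39 and 5 with RLE size factors and without Rn45s, and 33 and 5 with limma-voom. They were 6 and 3 with library totals only (which moved the median of all genes to −0.11), 382 and 116 without a low-count filter, 25 and 3 at a mean of at least 10 CPM, 183 and 36 with DESeq2, and 187 and 49 in the fit of all 12 libraries. Leaving out each library in turn gave 0 to 389 higher and 1 to 191 lower. Each heterozygous library and homozygous replicate 4 gave 0 and 1 when left out, and homozygous replicate 5 gave 7 and 1. Without homozygous replicates 4 and 5 the numbers were 23 and 2, and 26 and 2 without heterozygous replicate 2 as well. The GC score as a covariate gave 9 and 1, and a GC offset 168 and 26. The replicate number as a block over numbers 1, 2 and 4 gave 160 and 47, against 0 and 1 in the same 6 libraries without the block (an alternative chosen after seeing the data). Not every library correlated best with its own number, and whether the numbers pair the samples was not settled. All causes of these shifts other than fewer libraries or genes were not tested. Wfs1 stayed called in all 22 settings (log2 fold change −2.47 to −2.12, and −2.45 to −2.30 with a library left out), and the 44 called genes kept their direction in each. These settings reuse the libraries that the calls came from. Genes without a call changed sign: Ptgds and Col1a2 without homozygous replicate 4 (leave-one-out ranges −0.43 to 0.56 and −0.36 to 0.39), and Ptgds, Col1a2, Ddx3y and Col25a1 without replicates 4 and 5 (−0.28, −0.21, −0.0089 and −0.022), without heterozygous replicate 2 as well (−0.042, −0.079, −0.095 and −0.072) and with the GC score (−0.11, −0.064, −0.098 and −0.091).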
